A study of Dorcoceras hygrometricum with 51 samples.

Results

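The nitrate transporter genes described here are 5 of the 26693 genes in the expression table of the resurrection plant *Boea hygrometrica*. KZV47208, KZV47209 and KZV47210 are annotated as the high-affinity nitrate transporter NRT2.1, KZV42788 is annotated as an NRT1.1-like nitrate transporter and KZV43523 as an NRT1.5-like one. They were chosen by their annotation together with their measured levels in these same libraries, so their levels, fold changes and calls are given as a description, with no test. The 3 NRT2.1-type genes are neighbours on scaffold KQ995304.1, where KZV47208 (locus tag F511_05259) spans 388188 to 389778, KZV47209 (F511_05260) spans 392993 to 394534 and KZV47210 (F511_05261) spans 397296 to 398885. The gaps between them are 3214 and 2761 bp, and the 3 genes together cover 10698 bp of a scaffold that carries 57 genes. KZV42788 (F511_32296) lies on scaffold KQ998957.1 from 66671 to 70658, and its closest annotated match is an NPF6.3-like protein. KZV43523 (F511_19067) lies on scaffold KQ998108.1 from 287071 to 289062, and its closest match is an NPF7.3-like protein. Coordinates are those of the deposited tables, and no source used here names the genome build.

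Plants take up nitrate through families of membrane carriers. NRT2 proteins are high-affinity transporters that, in *Arabidopsis*, act mainly in roots when external nitrate is scarce and need the small partner protein NRT3.1 (NAR2.1) at the plasma membrane. NRT1.1 (NPF6.3) is a dual-affinity transporter that also senses nitrate, and NRT1.5 (NPF7.3) moves nitrate toward the xylem of the root in *Arabidopsis*. Inside the cell, nitrate reductase and nitrite reductase reduce nitrate to ammonium, which glutamine synthetase and glutamate synthase build into amino acids.

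The study followed how seedlings acquire, keep and lose tolerance of rapid drying after an earlier mild drought. RNA was sequenced from seedling leaves of 13 groups with 3 libraries each, 39 in all, and each replicate pooled about 45 leaves of at least 15 plants raised from seed of a wild population. The groups were fresh 3-month-old plants without acclimation (F), plants after slow drying of the soil (SD), and acclimated plants rehydrated after that drying (A). Plants of both histories were grown on for 4 weeks (F4, A4) or 18 weeks (F18, A18), and a final D marks rapid drying in air of the group before it (FD, AD, F4D, A4D, F18D, A18D). All plants shared the same potting soil, greenhouse and seed source. Promoter methylation came from 12 bisulfite libraries, 1 for each group other than FD, each pooled from 6 DNA replicates.

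FPKM is the number of sequenced fragments per kilobase of transcript, scaled to the mapped fragments of the library. The FPKM of a library summed to between 806800 and 1063490, and 12261 to 16315 genes reached 1 FPKM. The number of fragments per library is not in the tables, but the smallest steps of the low values put the worth of 1 fragment between 0.865 and 1.25 of the mean library. No 2 libraries were identical. The number of genes listed at 0 was highest in replicate 1 of F4D (10220) and replicate 2 of A4 (10145). Without the latter, the A4D/A4 differences on the log2(FPKM + 1) scale were 1.43, 1.65 and 1.47 for the NRT2.1-type genes, -3.37 for KZV42788 and 5.47 for KZV43523. Summed FPKM of 16 leaf mesophyll marker genes (photosystem and Rubisco genes) ranged from 19530 to 220716 in the 18 watered libraries and from 2378 to 22855 in the 18 rapidly dried ones. The 12 watered libraries before 18 weeks held 93144 to 220716, those of A18 held 39426 to 65554 and those of F18 held 19530 to 43551. The part of these lower sums in the F18/F and A18/F18 differences was not tested. All 5 transporter genes were among the 18736 genes kept because at least 3 libraries reached 1 FPKM. They reached 1 FPKM in 30 (KZV47208), 26 (KZV47209), 30 (KZV47210), 39 (KZV42788) and 37 (KZV43523) of the 39 libraries.

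The NRT2.1-type genes were high in 3 groups, all of them at 18 weeks, and low in the other 10. In KZV47208, the 3 libraries of F18 held 52.4, 288 and 136 FPKM (159 ± 120, SD, n = 3), those of F18D held 55.9, 49.5 and 150 FPKM (85.0 ± 56.0), and those of A18D held 40.6, 85.9 and 22.9 FPKM (49.8 ± 32.5). Every library of these 3 groups lay above the highest of the other 30 libraries, which was 14.71 FPKM in replicate 2 of F. Plants at 18 weeks that had been acclimated and were still watered, A18, held only 2.12, 1.05 and 0.61 FPKM (1.26 ± 0.777).

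KZV47209 followed the same order at the top, with 26.1, 158 and 76.4 FPKM in F18 (86.8 ± 66.5, SD, n = 3). Its libraries held 39.6, 32.5 and 96.3 FPKM in F18D (56.1 ± 35) and 12.5, 48.8 and 15.6 FPKM in A18D (25.6 ± 20.1). The libraries of A18 held 0.89, 0.20 and 0.65 FPKM (0.58 ± 0.350), so that the groups F18 and A18 did not overlap. KZV47210 stood between the other 2 genes in F18, with 36.9, 183 and 101 FPKM (107 ± 73.3). It held 48.2, 44.0 and 122 FPKM in F18D (71.2 ± 43.6), 16.6, 74.9 and 15.9 FPKM in A18D (35.8 ± 33.9) and 1.52, 0.20 and 0.36 FPKM in A18 (0.693 ± 0.720). Only for KZV47210 did A18D reach down to another group, because replicate 2 of F held 16.98 FPKM.

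**Figure D1:**
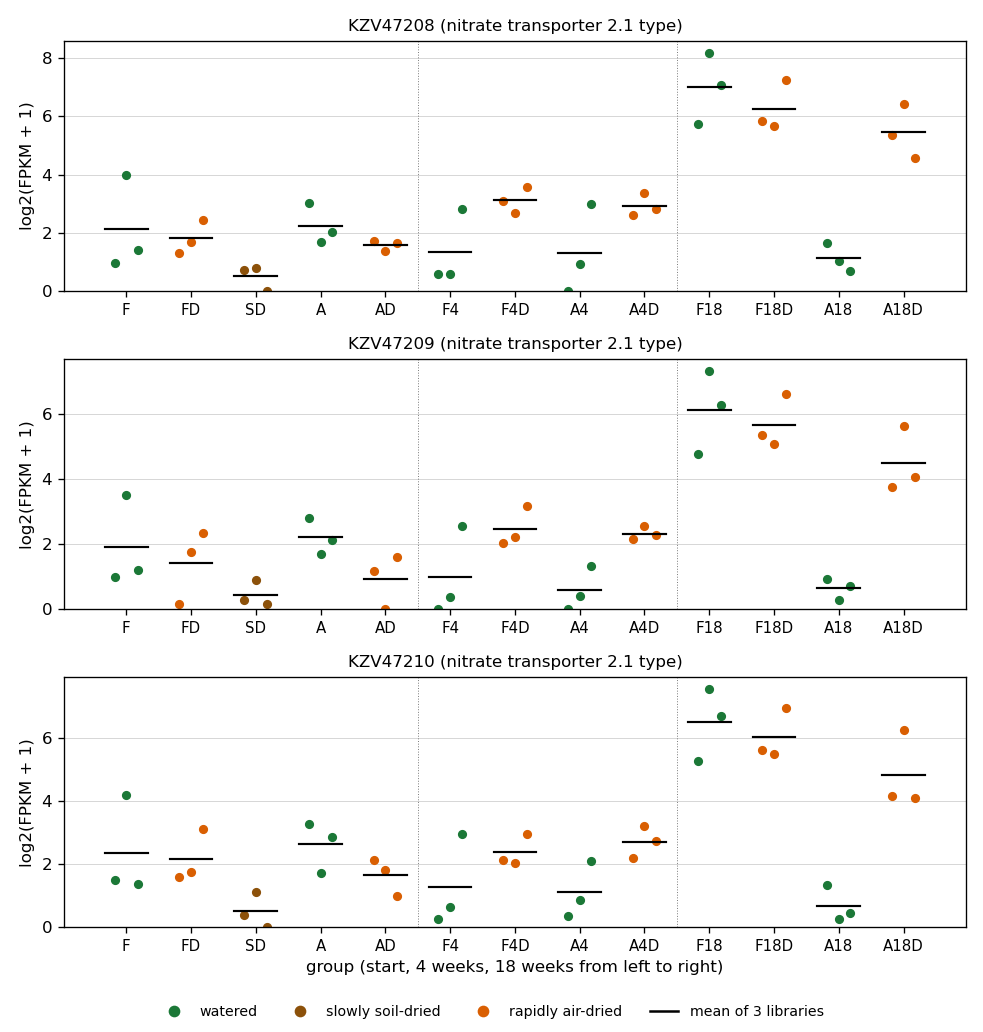
FPKM of the 3 NRT2.1-type genes in each of the 39 libraries (log2(FPKM + 1) axis), by group, with points for single libraries, a horizontal bar for the mean of the 3 log2 values and colours for watered, slowly soil-dried and rapidly air-dried plants. F18, F18D and A18D stand above the other groups in all 3 genes, and A18 lies with the low groups.

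Among the other groups the order of the 3 genes was loose, and neighbours in it overlapped throughout. Mean levels of KZV47208 ran from 7.90 ± 2.74 FPKM in F4D through 6.79 ± 2.24 in A4D, 5.77 ± 7.75 in F, 4.15 ± 2.68 in A, 2.72 ± 1.56 in FD, 2.62 ± 3.77 in A4, 2.35 ± 3.21 in F4 and 1.99 ± 0.378 in AD to A18, and ended at 0.45 ± 0.391 in SD. KZV47209 ranged from 4.93 ± 2.73 FPKM in F4D to 0.39 ± 0.401 in SD over these 10 groups. KZV47210 ranged from 6.78 ± 8.84 FPKM in F to 0.487 ± 0.602 in SD. SD was the lowest group of all 3 genes, and the large SD of F came from its replicate 2, with 14.71, 10.35 and 16.98 FPKM against at most 1.80 FPKM in the other 2 libraries.

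The 3 genes moved together from library to library. Over the 39 libraries, Pearson's r of log2(FPKM + 1) was 0.979, 0.978 and 0.976 for the 3 pairs, a description in which the genes share libraries and depth. In 8 of the 13 groups the 3 genes put the libraries in the same order. Where their summed level reached 10 FPKM, in 21 libraries, KZV47208 held 23.9 to 59.1% of the sum (median 41.9%), KZV47209 12.9 to 31.4% (median 25.1%) and KZV47210 23.9 to 49.6% (median 33.1%). The shares were narrower within F18, at 43.3 to 45.8%, 22.6 to 25.1% and 29.1 to 32.3%, although the F18 libraries themselves differed from 115 to 629 FPKM in the sum. The 3 genes carry the same product name, and their sequences were not compared. Fragments that the counting may have shared among them cannot be told apart from their own levels, so their sum is given as well. It was 353 ± 259 FPKM (SD, n = 3) in F18, 212 ± 135 in F18D, 111 ± 85.5 in A18D and 2.53 ± 1.73 in A18.

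F18 and F differ in weeks of growth without acclimation, and A18 and F18 differ in acclimation at the same labelled week. Whether A18 and F18 were of equal age is not stated. On the scale of log2(FPKM + 1), F18 lay above F by 4.89 ± 0.72 (SE) for KZV47208, 4.21 ± 0.70 for KZV47209 and 4.15 ± 0.73 for KZV47210. A18 lay below F18, with differences of -5.88 ± 0.72, -5.48 ± 0.70 and -5.80 ± 0.73 in the same gene order. In linear means the F18 level was 126, 150 and 154 times that of A18. The 3 libraries of A18 lay below all 3 of F18 for each gene. Leaving out libraries and the other settings tried moved the A18/F18 difference between -6.77 and -5.25, -6.81 and -4.70, and -7.18 and -5.07 for the 3 genes. Between A and F the differences were 0.13, 0.30 and 0.28, and between A4 and F4 they were -0.02, -0.40 and -0.17, all smaller than their SE.

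Rapid drying of the 18-week plants went different ways in the 2 histories. In A18D the genes lay above A18 by 4.34 ± 0.72, 3.85 ± 0.70 and 4.14 ± 0.73 on the log2 scale, and the groups did not overlap. In F18D the differences from F18 were -0.76, -0.44 and -0.46, within or close to 1 SE, and the groups overlapped. The difference between these responses, A18D - A18 minus F18D - F18, came to 5.11 ± 1.02 for KZV47208 (3.70 to 5.92 over the other settings tried), 4.29 ± 0.99 for KZV47209 (2.62 to 5.58) and 4.61 ± 1.04 for KZV47210 (2.90 to 5.95). Between the dried plants of both histories, A18D differed from F18D by -0.78 ± 0.72, -1.19 ± 0.70 and -1.19 ± 0.73, with overlapping libraries. Over the other settings tried this was -1.55 to 0.17, -2.07 to -0.51 and -2.17 to -0.36. The difference between the responses was -0.37, -0.80 and -0.79 at the start and -0.17, 0.25 and 0.49 at 4 weeks, each within about 1 SE of 0.

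At the earlier ages these genes stayed low in watered and dried leaves alike, with differences in both directions. After slow drying of the soil every SD library lay below every F library, with mean FPKM 12.8, 10.8 and 13.9 times lower. On the log2(FPKM + 1) scale the differences were -1.62, -1.46 and -1.84, and without replicate 2 of F the differences were -0.69, -0.66 and -0.92. After rapid drying FD differed from F by -0.30, -0.48 and -0.18, and AD from A by -0.67, -1.28 and -0.97. At 4 weeks the dried groups lay above the watered ones, by 1.78, 1.5 and 1.1 in F4D/F4 and by 1.61, 1.74 and 1.59 in A4D/A4. Only KZV47209 and KZV47210 in A4D/A4 had no overlap there, with mean FPKM 6.57 and 3.93 times higher in A4D. These were differences between levels below 11 FPKM, and libraries listed at 0 occurred in A4 and F4.

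One set of markers of another tissue moved in part with the NRT2.1-type genes. Casparian strip membrane protein genes mark the root endodermis, and the summed FPKM of the 6 measured was 10.67 to 18.41 in F18, 7.06 to 24.29 in F18D and 3.03 to 29.94 in A18D. In A18 the sum was 1.44 to 4.01, and in the other 10 groups, A18 included, it was 0.0 to 6.64. In A18D only replicate 2 lay above that range, while replicates 1 and 3 held 6.41 and 3.03. Most of it came from 1 gene added by the authors to the annotation, with a mean of 12.6 FPKM in F18, 10.8 in F18D, 9.01 in A18D and at most 2.05 elsewhere, while KZV45483, annotated as Casparian strip membrane protein 1 itself, was listed at 0 in 33 of the 39 libraries. The part of these markers in the NRT2.1 result was not tested. In bulk leaves, more or fewer cells of a type and more or less RNA per cell cannot be told apart.

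KZV42788, the NRT1.1-like gene, was high in watered leaves and low in rapidly dried ones. Over the 18 watered libraries it ranged from 46.7 to 779 FPKM (median 320.0), and over the 18 rapidly dried libraries from 15.0 to 70.9 FPKM (median 25.7). F18 stood at the top with 507, 779 and 620 FPKM (635 ± 137, SD, n = 3), where the gene ranked 130 by mean level among the 26693 genes. F held 375, 450 and 241 FPKM (355 ± 106), A held 401, 585 and 214 (400 ± 186), F4 held 339, 272 and 229 (280 ± 55.5) and A4 held 256, 247 and 509 (337 ± 148). F, A, F4 and A4 overlapped with each other, and F18 lay above every library of F and F4 but overlapped with A and A4. The watered group with the lowest mean was A18, with 97.9, 46.7 and 301 FPKM (149 ± 135), whose replicate 3 lay within the range of the younger watered groups.

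Slow drying of the soil left KZV42788 near the watered level. The SD libraries held 229, 281 and 186 FPKM (232 ± 47.6), which overlapped with F, and the log2 difference from F was -0.59 ± 0.48. In the same SD libraries the summed mesophyll markers were 8105 to 14212 FPKM, below every watered library. Rapid drying gave far lower levels, with 17.2, 19.5 and 15.0 FPKM in FD (17.2 ± 2.29) and 15.0, 17.3 and 20.4 FPKM in F4D (17.6 ± 2.71). AD held 28.7, 22.8 and 29.4 FPKM (27 ± 3.62), above all libraries of F4D and FD. A4D held 60.6, 35.9 and 17.7 FPKM (38.1 ± 21.6), A18D held 18.8, 33.1 and 68.9 (40.2 ± 25.8) and F18D held 35.4, 40.0 and 70.9 (48.8 ± 19.3). The first 2 of these overlapped with AD, and F18D lay above it.

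The rapid responses of KZV42788 were -4.25 for FD/F, -3.73 for AD/A, -3.91 for F4D/F4, -3.19 for A4D/A4 and -3.72 for F18D/F18, each ± 0.48 (SE) on the log2(FPKM + 1) scale, and in each of them the groups did not overlap. FD and AD also lay below SD, with differences of -3.66 and -3.05. The response was smaller in A18D/A18, at -1.64, where the watered level was already low and the groups overlapped. Without replicate 3 of A18 it was -0.93. The difference between the 18-week responses, A18D - A18 minus F18D - F18, was 2.08 ± 0.69 (1.24 to 2.79 over the other settings tried). It was not called by the limits given below. A18 lay below F18 with a difference of -2.48, which was -1.70 when replicate 2 of every group was left out. The summed mesophyll markers were also lower in the rapidly dried libraries, and their part in the lower FPKM of KZV42788 was not tested.

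KZV43523, the NRT1.5-like gene, went the opposite way and was high in every dried group. It was near 1 FPKM in young watered leaves, with 0.85, 1.62 and 1.3 FPKM in F (1.26 ± 0.387, SD, n = 3), 1.45, 2.14 and 4.14 in A (2.58 ± 1.40), 1.34, 1.88 and 2.65 in F4 (1.96 ± 0.658) and 1.48, 0.57 and 1.00 in A4 (1.02 ± 0.455). These 4 groups overlapped. Watered leaves at 18 weeks held more, with 9.62, 11.3 and 5.52 FPKM in F18 (8.80 ± 2.96), above every library of the younger watered groups, and 55.1, 14.2 and 9.69 FPKM in A18 (26.3 ± 25.0).

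After slow drying of the soil, KZV43523 held 17.7, 84.8 and 47.8 FPKM in SD (50.1 ± 33.6). The rapidly dried libraries ranged from 38.9 to 637 FPKM (median 114). A18D had the highest mean, from 90.9, 159 and 637 FPKM (296 ± 298), and the gene ranked 420 by mean level in that group. FD followed with 418, 71.0 and 130.0 FPKM (206 ± 186), then F18D with 114, 54.2 and 204 (124 ± 75.6), F4D with 102, 154 and 61.7 (106 ± 46.1), A4D with 98.5, 138 and 68.3 (102 ± 35.1) and AD with 38.9, 123 and 115 (92.2 ± 46.3). Neighbours in this order overlapped. The high means of A18D and FD came largely from 1 library each, although these groups also had the highest medians, at 159 and 130 FPKM.

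**Figure D2:**
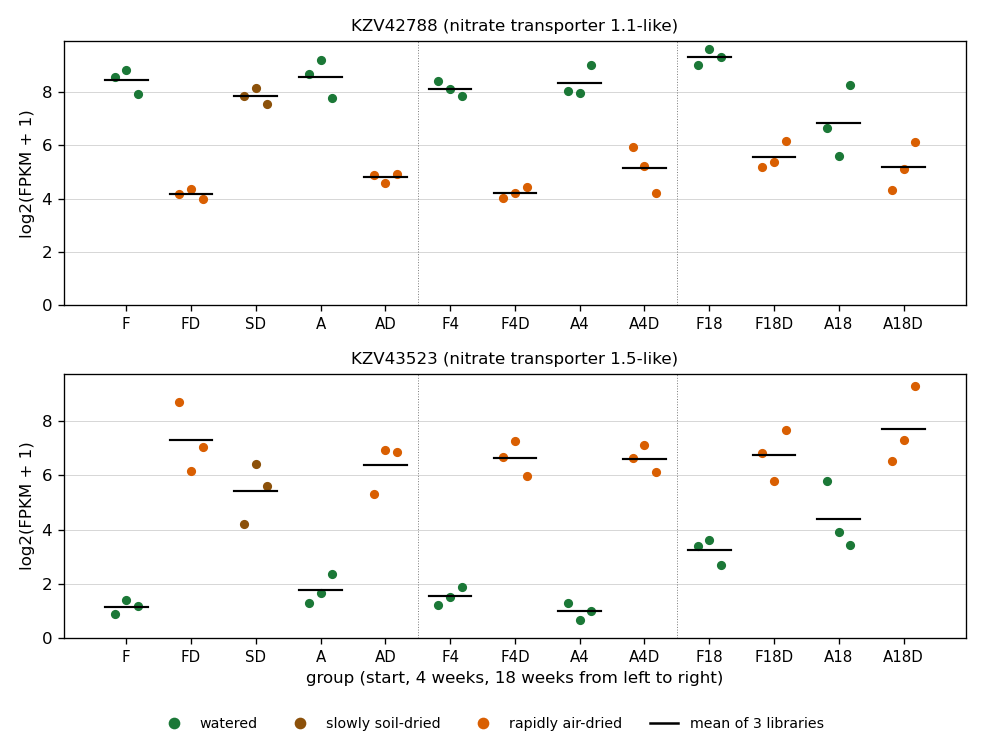
FPKM of the NRT1.1-like gene KZV42788 and the NRT1.5-like gene KZV43523 in each of the 39 libraries (log2(FPKM + 1) axis), drawn with points for libraries, bars for the mean of the 3 log2 values and colours for the water status. KZV42788 is lowest in the rapidly air-dried groups but not in SD, and KZV43523 is highest in the dried groups, SD included.

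The log2 differences of KZV43523 were 4.26 for SD/F and, among the rapid dryings, 6.15 for FD/F, 4.61 for AD/A, 5.10 for F4D/F4, 5.64 for A4D/A4, 3.53 for F18D/F18 and 3.34 for A18D/A18, each ± 0.66 (SE), with no overlap between groups in any of the 7. After rehydration, A differed from SD by -3.65. A differed from F by 0.61, which is smaller than its SE. F18 lay above F by 2.08 and A18 above A by 2.62, without overlap in either. The responses of the 2 histories differed by -1.54 at the start, 0.54 at 4 weeks and -0.19 at 18 weeks, with an SE of 0.94 each. Over the 39 libraries KZV43523 and KZV42788 had a Pearson's r of -0.797, and r between either of them and an NRT2.1-type gene was -0.0381 to 0.26. This is a description across libraries that share their 13 groups.

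**Figure D3:**
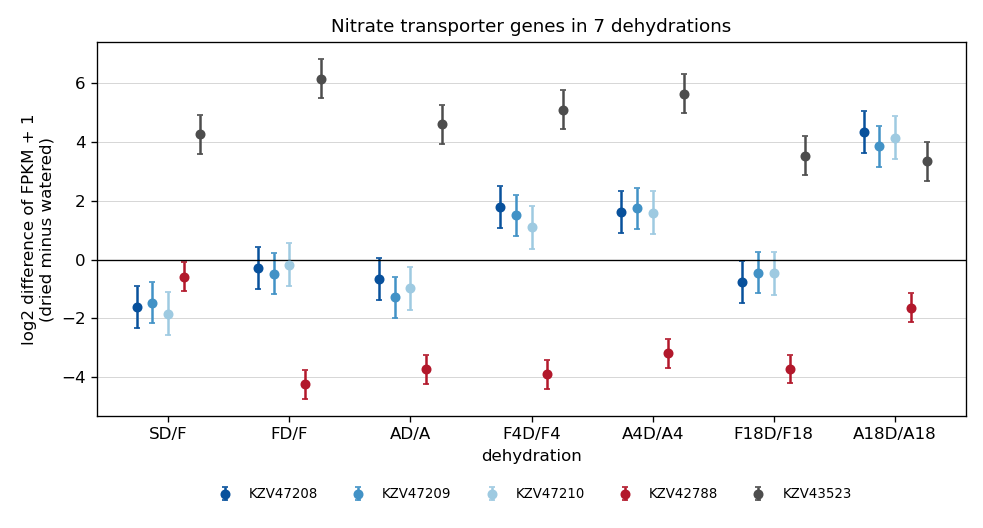
Differences in log2(FPKM + 1) between dried and watered groups for the 5 transporter genes in the 7 dehydrations, with error bars of 1 SE of the fit (3 libraries a group). KZV43523 lies above 0 in all 7 and KZV42788 below 0 in all 7, while the NRT2.1-type genes lie far above 0 in A18D/A18 only.

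A gene was called where limma gave a Benjamini-Hochberg adjusted p of at most 0.05 and a change of at least 2-fold. Because the 5 genes were chosen on these data, their calls are set beside the share of all 18736 tested genes called and nothing is read from them. In FD/F, AD/A and F18D/F18, 1 of the 5 was called up (KZV43523) and 1 down (KZV42788), beside 13.2% up and 29.1% down of all genes in FD/F, 13.1% and 26.2% in AD/A, and 6.13% and 30.2% in F18D/F18. In SD/F 1 was up (KZV43523) and 1 down (KZV47210, not called without replicate 2 of F), beside 12.9% and 22.1%. In F4D/F4 2 were up (KZV47208, KZV43523) and 1 down, beside 10.4% and 35.9%, and in A4D/A4 2 were up (KZV47209, KZV43523) and 1 down, beside 10.4% and 35.5%. In A18D/A18 4 were up and 1 down, beside 6.43% and 20.6%. In A18/F18 4 were down and none up, beside 5.75% down and 2% up, and in F18/F 4 were up and none down, beside 13.5% up and 7.15% down. In A/SD 2 were up and 1 down, beside 20.4% and 14.5%. No member was called in A/F or in A4/F4, where 0.0587% of all genes were up and 0.0587% down in the first, and 0.0213% and 0.0267% in the second.

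On the deposited scale the bulk of all genes lay lower in the rapidly dried groups. The median log2 difference of all kept genes was -0.45 for FD/F, -0.33 for AD/A, -0.67 for F4D/F4, -0.61 for A4D/A4, -0.63 for F18D/F18 and -0.41 for A18D/A18, and between -0.17 and -0.01 in these comparisons after median-ratio scaling of the libraries. The share of calls that were up then rose from 31.2 to 44.0% for FD/F, 22.4 to 47.6% for F4D/F4, 22.6 to 44.9% for A4D/A4, 16.9 to 52.8% for F18D/F18 and 23.8 to 54.3% for A18D/A18. It rose from 33.2 to 46.4% in AD/A and from 25.8 to 57.7% in A18/F18, and fell from 65.3 to 44.8% in F18/F, whose all-gene medians moved from -0.29 to -0.01 and from 0.21 to -0.05. No member that was called changed direction under the scaling.

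The partner protein gene of NRT2, KZV18238 (NRT3.1), had a pattern close to that of KZV47208. Among genes with a named product outside the cluster, its Pearson's r over the 39 libraries was the highest, at 0.884. Over the 13 group means another gene, KZV57968, took that place (r = 0.963). KZV18238 held 393, 1249 and 639 FPKM in F18, 550, 559 and 828 in F18D and 948, 834 and 333 in A18D, above every library of the other 10 groups. A18 held 173, 45.9 and 34.7 FPKM (84.6 ± 76.9, SD, n = 3), so that its groups A18D and A18 did not overlap. Because KZV18238 was picked for its likeness over these same libraries, its differences are given without a test. They were 3.27 ± 0.57 (SE) in A18D/A18, 3.70 in F18/F, -3.36 in A18/F18 and -0.10 in F18D/F18 on the log2 scale, and the A18/F18 difference was -2.67 when replicate 2 of every group was left out. A second NRT3.1 gene, KZV29253, picked after its values were seen, rose in F18/F in limma with Benjamini-Hochberg adjustment over all genes (3.18, adjusted p = 6.1e-06) and was lower in A18/F18 (-2.02, adjusted p = 0.0047). The latter call was lost without replicate 2 of every group, at -1.75, and when only the libraries of A18 and F18 were fitted.

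Other high-affinity transporter genes varied. KZV57381, the only other gene with the NRT2.1 product name, was named after its values were seen. It was listed at 0 in all libraries of A18 and in 1 library of A18D, whose other libraries held 2.32 and 5.26 FPKM, and it reached at most 1.14 FPKM elsewhere. KZV25489, an NRT2.5-like gene picked after its values were seen, held 806, 943 and 784 FPKM in F18 and 8.37, 31.8 and 11.8 FPKM in F, and rose by 5.74 (limma, adjusted p = 6.8e-06). Its A18 libraries held 366, 85.7 and 54.4 FPKM, a difference from F18 of -2.80 (adjusted p = 0.029, a call lost in 11 of 14 other settings), and it did not pass the test in A18D/A18, at -0.47 (adjusted p = 0.71). Whether its response differed from that of the NRT2.1-type genes was not tested. KZV22686, an NRT2.4-like gene, rose from 0.987 ± 0.371 to 12.2 ± 2.83 FPKM in AD/A (2.72, adjusted p = 1.5e-07) and was called up in 5 of the 7 dehydrations. KZV39920, annotated likewise, fell in SD/F from 17.8 ± 13.2 to 2.25 ± 0.630 FPKM (-2.31, adjusted p = 0.0027). Of the 9 tested NRT2 and NRT3 genes outside the chosen 5, limma called 0 in F18D/F18 (2 had an unadjusted p under 0.05), beside 6.13% up and 30.2% down of all genes. In A18D/A18 4 were up, beside 6.43% of all genes, and in A18/F18 4 were down, beside 5.75%. After median-ratio scaling 5 were up in A18D/A18, beside 2161 of all genes, and 2 down in A18/F18, beside 350. Both unscaled counts include KZV18238, which was picked for its likeness to KZV47208. KZV57381 was among the 9 tested and passed the filter mainly through its A18D libraries. Nothing is therefore read from these counts.

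**Figure D4:**
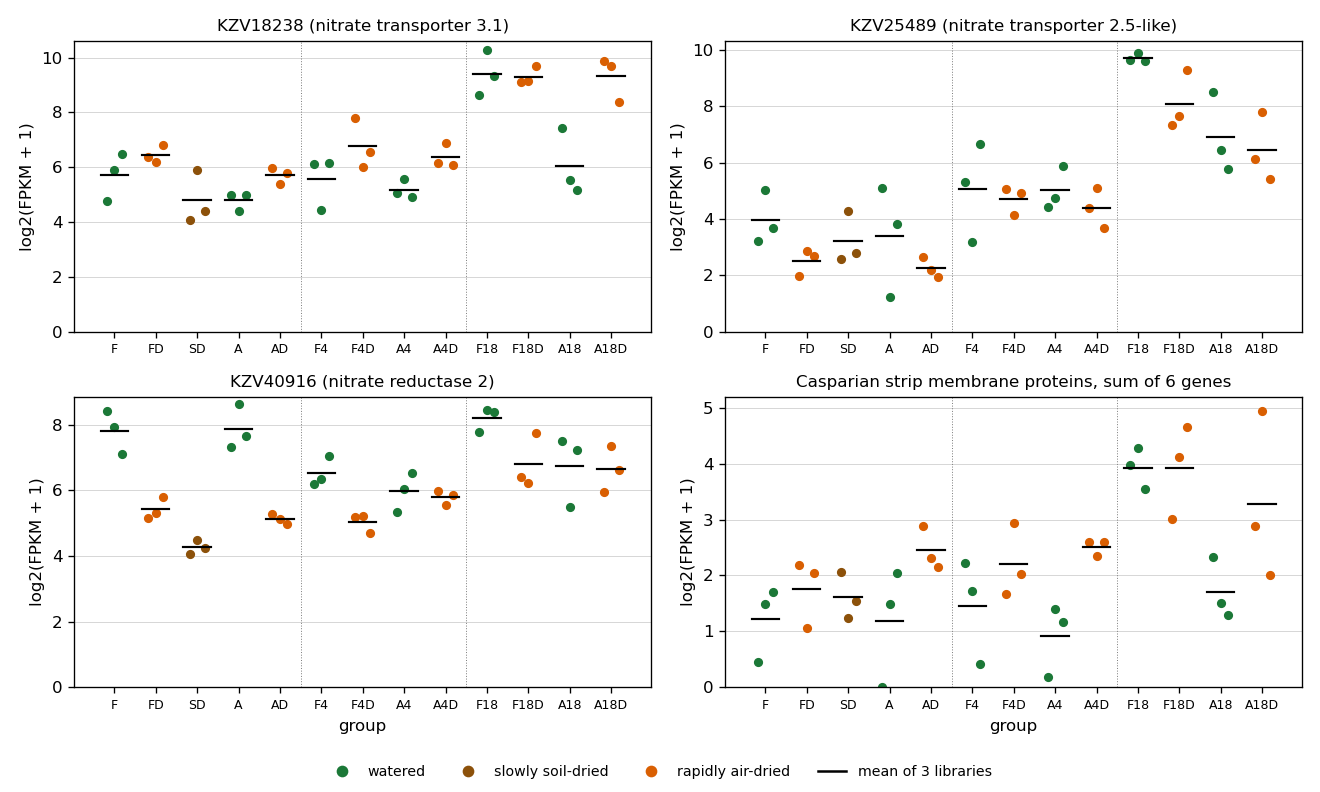
FPKM of the NRT3.1 gene KZV18238, the NRT2.5-like gene KZV25489, the nitrate reductase gene KZV40916 and the summed FPKM of 6 Casparian strip genes in each of the 39 libraries (log2(FPKM + 1) axis), with points for libraries and bars for the mean of the 3 log2 values. KZV18238 shares the high F18, F18D and A18D with the NRT2.1-type genes. The Casparian strip sum is high in F18 and F18D, but in A18D only replicate 2 lies above the other groups. KZV25489 is high in F18 but not raised in A18D over A18.

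Members of the NRT1/PTR family beside KZV42788 and KZV43523 were more often called down than up with drying, as all genes were. Of 42 tested genes, 6 were up and 21 down after slow drying (SD/F). After rapid drying 7 were up and 18 down for FD/F, 6 and 19 for AD/A, 3 and 18 for F4D/F4, 5 and 23 for A4D/A4, 0 and 16 for F18D/F18, and 3 and 15 for A18D/A18. Of the 42, 8 were down in all 7 dehydrations. The share of all genes down in all 7 is not given here, so nothing is read from this count. Called down were 35.7 to 54.8% of the 42 over the 7 dehydrations, beside 20.6 to 35.9% of all genes, and called up 0 to 16.7%, beside 6.13 to 13.2%. No gene of the family that was higher in F18D than in F18 had an unadjusted p under 0.05 (0 of 42). After median-ratio scaling 1 was up and 12 down of 39 in F18D/F18, where 2050 of all genes were up and 1829 down. In A18D/A18 3 and 10 remained, where 2161 of all genes were up and 1820 down. KZV20616 fell from 42.8 ± 3.82 to 0.553 ± 0.533 FPKM in SD/F (-4.87, limma adjusted p = 2.8e-10), and KZV51528, a putative nitrite transporter, fell from 48.4 ± 8.58 to 0.84 ± 0.328 FPKM in AD/A (-4.75, adjusted p = 2.3e-11). KZV23350, a putative peptide/nitrate transporter, rose from 17.2 ± 2.70 to 611 ± 154 FPKM in FD/F (5.05, adjusted p = 3.1e-08).

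Genes of the steps after uptake went both ways. Nitrate reductase KZV40916 held 342, 244 and 137 FPKM in F and 15.7, 21.7 and 18.0 FPKM in SD, and fell by 3.55 ± 0.45 (limma adjusted p = 1.4e-07). It was down in 5 of the 7 dehydrations, while the other nitrate reductase genes, which are weakly expressed, were up in SD/F. KZV50923 rose there from 0.803 ± 0.761 to 4.5 ± 1.88 FPKM (1.65, adjusted p = 0.0031) and KZV48947 from 0.517 ± 0.454 to 3.99 ± 0.870 FPKM (1.75, adjusted p = 0.0065), and both were named after their values were seen. Nitrite reductase KZV54009 fell in AD/A from 205 ± 112 to 55.7 ± 33.5 FPKM (-1.95, adjusted p = 0.00086) but rose in SD/F (1.47, adjusted p = 0.011), a call lost without replicate 3 of F, at 1.05. Glutamine synthetase KZV14969 fell from 513 ± 20.9 to 5.26 ± 1.07 FPKM in SD/F (-6.37, adjusted p = 3.9e-11). The chloroplastic form KZV20761 fell there from 1186 ± 317 to 41.0 ± 19.4 FPKM (-4.88, adjusted p = 9.7e-09). Of the 7 tested glutamine synthetase genes, 4 were down in all 7 dehydrations, again without an all-gene share to set beside the count. Ammonium transporter KZV43783 fell in AD/A from 244 ± 23.1 to 7.20 ± 1.37 FPKM (-4.91, adjusted p = 2.7e-10) and was down in all 7. Ferredoxin-type glutamate synthase KZV57862 fell in F4D/F4 by 3.24 (adjusted p = 1.2e-08).

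Lists of amino acid genes and regulators held rises and falls. Asparagine synthetase KZV32197 rose from 4.68 ± 2.19 to 376 ± 80.02 FPKM in FD/F (6.12, limma adjusted p = 3.3e-07) and glutamate dehydrogenase KZV42715 from 8.72 ± 1.69 to 138 ± 49.9 FPKM (3.78, adjusted p = 1.9e-08). Of the 4 tested glutamate dehydrogenase genes KZV42715 was up in all 7 dehydrations, while KZV37894 (-3.46 in SD/F, adjusted p = 3.1e-07) and KZV58813 (-2.64 in F4D/F4, adjusted p = 6.5e-09) were down in all 7. The share of all genes called in all 7 is not given here, so nothing is read from these counts. Among regulators, the BTB/TAZ gene KZV24606 rose from 2.01 ± 1.64 to 191 ± 65.0 FPKM in A4D/A4 (6.14, adjusted p = 1.8e-09) and was up in all 7. LOB domain gene KZV57745, whose *Arabidopsis* relatives repress nitrate-responsive genes, fell from 140 ± 41.9 to 1.19 ± 0.783 FPKM in SD/F (-6.02, adjusted p = 1.5e-08). Genes of NIN-like proteins, from the family that carries nitrate signals to target genes, went apart, since KZV20231 rose in SD/F from 17.1 ± 2.07 to 91.2 ± 17.9 FPKM and KZV20976 fell in FD/F from 48.1 ± 16.7 to 1.86 ± 0.562 FPKM. Over the 127 tested genes of 18 nitrogen lists, 18 were up (14.2%) and 57 down (44.9%) after slow drying (SD/F), beside 12.9% and 22.1% of all genes. The rapid dryings gave 18 up and 52 down for FD/F, 19 and 52 for AD/A, 12 and 58 for F4D/F4, 16 and 60 for A4D/A4, 3 and 50 for F18D/F18, and 13 and 41 for A18D/A18. These were 2.36 to 15.0% up and 32.3 to 47.2% down, beside 6.13 to 13.2% and 20.6 to 35.9% of all genes. After median-ratio scaling the counts were 22 and 38 for F4D/F4, 9 and 23 for F18D/F18, and 23 and 25 for A18D/A18. The scaled calls over all genes were 3571 up and 3938 down, 2050 and 1829, and 2161 and 1820 in the same order. In A/SD 55 were up and 14 down, beside 20.4% and 14.5% of all genes. In A18/F18 4 were up and 24 down, beside 2% and 5.75%, and in F18/F 31 and 10, beside 13.5% and 7.15%. After scaling, 4 and 12 of 124 remained in A18/F18, where 477 of all genes were up and 350 down. In F18/F 23 and 15 of 124 remained, where 1455 of all genes were up and 1790 down. The response to rapid drying differed between plant histories at the start in 5 list genes upward and 9 downward, beside 4.4% and 4.41% of all genes, and at 18 weeks in 5 and 1, beside 0.512% and 0.288%. Their median log2 difference was -0.92 in SD/F, beside -0.14 over all genes, and -0.42 in A18/F18, beside -0.29. In A/F limma called 0 of them, and 17 had an unadjusted p under 0.05.

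Among genes with a named product, the others closest to the chosen 5 were of mixed annotation. After each other, KZV47209 and KZV47210 were most like KZV57968, an ESCAROLA-type DNA-binding protein gene, with r of 0.866 and 0.847 over the 39 libraries. KZV57968 was weakly expressed, at 2.26 to 3.36 FPKM in F18, 0.89 to 2.46 in F18D and 0.88 to 2.28 in A18D. It was listed at 0 throughout F, SD, A, F4 and A18, and held at most 0.54 FPKM elsewhere. Only libraries of F18, F18D and A18D therefore carried it past the filter of 1 FPKM. With Spearman's rho KZV20841, an inorganic phosphate transporter gene, took its place (0.714 and 0.728). KZV42788 was most like KZV35115, a phosphatidylinositol phosphate kinase gene (r = 0.946), which fell from 17.7 ± 2.95 FPKM in F to 0.700 ± 0.229 in FD. KZV43523 was most like KZV16558, a scopoletin glucosyltransferase-like gene (r = 0.945), which went from 2.69 ± 1.71 FPKM in F to 1545 ± 257 in FD. With Pearson's r over the 13 group means, none of the 3 genes closest to KZV42788 and 2 of the 3 closest to KZV43523 stayed among the closest 3. With Spearman's rho over the 39 libraries, 1 of the 3 stayed for KZV42788 and 0 for KZV43523.

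The genes on both sides of the NRT2.1 cluster did not share its 18-week pattern. KZV47207, a hypothetical protein gene 1228 bp from KZV47208, had means of 24.6 FPKM in F18, 18.3 in A18 and 7.64 in A18D. KZV47211, an OTU domain gene 1439 bp from KZV47210, had means of 7.82 FPKM in F18, 3.56 in A18 and 1.16 in A18D. Both were therefore lower in A18D than in A18, where the 3 genes between them were higher.

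Promoter methylation was the share of methylated reads over the 2-kb promoter of each gene in 1 library a group, without replicates or read depth, so no test was possible. CG, CHG and CHH are the 3 sequence contexts of cytosine methylation in plants, H being any base but G. In the same tables the expression column follows the locus tag of the preceding gene, with r of 0.928 to 0.943 at that offset against 0.0691 to 0.0943 at the gene's own tag. The methylation columns were read at their own tag, because the 33 placed pairs of genes with identical fractions in the table of A18D lay within 3000 bp of each other there, in 33 of 33 cases, against 25 of 33 at the offset. This limit holds for all methylation values given here.

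The 3 NRT2.1 promoters sat at different levels. KZV47208 had a low CG level of 0.329% (F18) to 21.4% (SD), with 20.7% in A18, 10.8% in F18D, 12.8% in A18D and 1.70% in A. Its CHG level ran from 0.627% in A to 32.8% in SD. KZV47209 was methylated throughout, with a CG level of 52.8% (A4) to 87.7% (A18) and 69.7% in F18. KZV47210 lay between them, at 27.1% (AD) to 58.3% (A18), with 35.4% in F18. CG levels of all 3 genes were therefore higher in A18, a group with low expression, than in F18, by 20.4, 18.0 and 22.9 percentage points. The gain reached 20 points for 2 of the 3, and across all promoters 3.44% gained and 2.46% lost at least that much in A18/F18. SD, the other group at the bottom of expression, had the highest CG level of KZV47208 but not of the other 2 genes. Other groups with low expression held the lowest CG level of KZV47209 (A4, 0.613 FPKM) and of KZV47210 (AD, 2.30 FPKM). The 1.70% of KZV47208 in A went with 4.15 FPKM.

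The promoter of KZV42788 showed the widest gap of the 5. Its CG level was 56.9 to 77.5% in 11 libraries and 0.0% in A18, where CHG was 4.08% and CHH 0.931%. The values around it were 71.1% CG, 82.1% CHG and 45.0% CHH in A, 69.0%, 77.1% and 53.2% in F18, and 75.5%, 76.1% and 49.8% in A18D, the dried plants of the same history and age. A18 was also the watered group with the lowest expression of KZV42788. Of 10619 promoters with at least 50% CG methylation in F18, 46 (0.433%) were below 5% in A18. Without depth, a promoter covered by few reads in the A18 library cannot be told apart from one that had lost its methylation. The promoter of KZV43523 stayed at or below 3.40% in all contexts and libraries, although its expression spanned 0.57 to 637 FPKM.

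**Figure D5:**
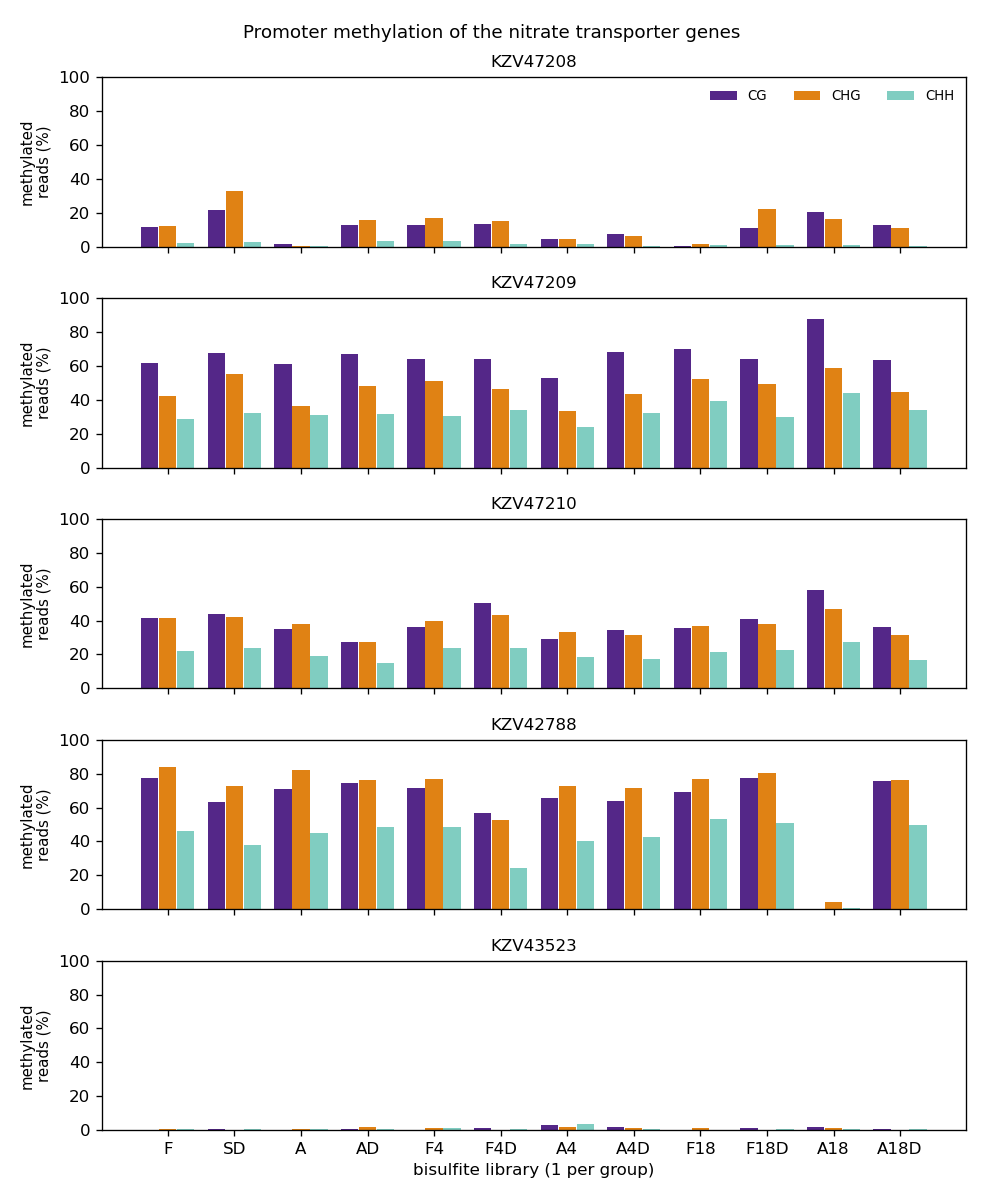
Promoter methylation (percent of reads, axis from 0) of the 5 transporter genes in CG, CHG and CHH contexts, with 1 bar per context for the 1 library of each of 12 groups. KZV43523 stays near 0, KZV47209 stays high, and KZV42788 drops to 0.0% CG in A18 alone.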

How the data were processed

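The FPKM values were made and deposited by the authors, who aligned reads with HISAT, assembled transcripts with StringTie 1.0.4, mapped to the transcripts with Bowtie2 2.2.5 and estimated abundance with RSEM, and who used DESeq2 for their own comparisons. The version of RSEM and the genome build are not given in the sources used here. Promoter methylation was deposited by the authors as a fraction of methylated reads per gene and context from BSMAP alignments. It was multiplied into percent, and the 12 FPKM columns beside it were not used. The columns of the authors' own comparisons were not used.

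Genes that reached 1 FPKM in 3 or more libraries entered the test on log2(FPKM + 1) with limma 3.58.1 in R 4.3.3, in 1 fit of all 39 libraries with 13 groups and no other term and with a mean-variance trend, over 20 comparisons and 3 differences of responses. Fold changes of low genes are understated on this scale. Calls needed a Benjamini-Hochberg adjusted p of at most 0.05 and a 2-fold change. The fit was tested on simulated data. Replicates were pools of plants, and nothing states whether they were raised apart. The members and the 18 nitrogen lists, matched by annotation words, were chosen with earlier results of these data known. Up to 3 called genes a list were named. They had the largest change over the 7 dehydrations, 10 FPKM or more as the mean of the higher group, and no overlap. The 3 genes most like each member, among those with a named product, were added. Markers of leaf mesophyll, root endodermis, guard cells and xylem were summed, and the phloem list matched no gene. Guard cell and xylem lists had 1 gene each, at 0.40 to 12.76 and 0.30 to 181.54 FPKM. Alternatives were a pseudocount of 0.1, no filter, median-ratio scaling, a replicate block, the compared groups alone, and each library left out. Protein and promoter sequences were not used here.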

Additional observations from a re-analysis of the deposited data

Results flagged for a closer look

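Responses to rapid drying that differed between plant histories were found, in limma with Benjamini-Hochberg adjustment over all tested genes, for 8 of the list genes named in the text, and for none of them was a cause tested. Of all tested genes, 4.4% differed upward and 4.41% downward at the start, and 0.512% and 0.288% at 18 weeks. Nothing is read from the number of genes flagged. At 18 weeks the response of the NRT3.1 gene KZV18238 was larger in acclimated plants, with a log2 difference of 3.38 between A18D - A18 and F18D - F18 (adjusted p = 0.038), a call lost in 14 of the 19 other settings. KZV18238 was picked for its likeness to KZV47208 over these libraries, so this p is no independent evidence.

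At the start, AD - A was compared with FD - F. The NRT1/PTR gene KZV20616 differed by -1.98 (adjusted p = 0.038, lost in 14 settings) and KZV51528 by -2.11 (adjusted p = 0.0098, lost in 3). The NIN-like protein genes KZV20976 and KZV34829 differed by 1.88 (adjusted p = 0.0067, lost in 2) and 1.33 (adjusted p = 0.022, lost in 6). The BTB/TAZ-list gene KZV34768 differed by 2.35 (adjusted p = 0.027, lost in 9). Ammonium transporter KZV43783 differed by -1.99 (adjusted p = 0.042, lost in 16, the replicate block among them), and the CIPK8-like kinase gene KZV46378 by -1.57 (adjusted p = 0.035, lost in 12).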

How the results depend on the processing

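No called difference of the 5 transporter genes changed direction under any setting. Of 224 recomputed counts of nitrogen-list genes, 213 stayed within 1.5 times their first value. With median-ratio scaling, 22 rose and 38 fell in F4D/F4 (12 and 58 as deposited), 9 rose and 23 fell in F18D/F18 (3 and 50), and 23 rose and 25 fell in A18D/A18 (13 and 41). A pseudocount of 0.1 gave 5 rises in F18D/F18, and fitting A18D/A18 alone gave 6 rises and 25 falls. Leaving out libraries gave 9 to 17 rises in SD/F (18 with all libraries), with 9 without replicate 1 and 11 without replicate 3 of every group. Named list genes kept their call in 819 of 950 recomputed values and never reversed. With a replicate block 18 rose and 57 fell in SD/F. Replicate numbers did not pair the libraries, since same-numbered libraries deviated together with r of -0.43 to 0.337, and in 0 of 20 comparisons were all such r above 0.1. With the block, the count of all calls was 0.682 to 1 times that without it. Scaling gave KZV42788 a difference of -1.06 in A18D/A18 and KZV43523 one of 1.65 in F18/F, no longer called.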
